A study of Mus musculus with 15 samples.

Results

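The nuclear-encoded genes of oxidative phosphorylation were described in 15 single cells from mouse inguinal white fat. Members were the rows whose gene symbol begins with Nduf, Uqcr, Cox4 to Cox8 or Atp5, or is Sdha, Sdhb, Sdhc or Sdhd. This name rule, which uses no measured value, found 85 of the 8446 rows of the table. Of these 85 genes, 75 encode subunits of the 5 complexes. The other 10 are the complex I assembly factors Ndufaf1 to Ndufaf7, the supercomplex factor Cox7a2l, the Ndufa4 paralogue Ndufa4l2 and the ATP synthase-associated gene Atp5s.

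The cells came from adult C57BL/6 mice of the genotype Prrx1-CreERT;Tomato, in which a tamoxifen-activated Cre recombinase driven by Prrx1 turns on the red Tomato reporter. Prrx1 encodes a homeobox transcription factor of mesenchymal cells, so the cells studied are limited to those in which this driver was active when tamoxifen was given. The mice had received tamoxifen at 2 mg per 30 g of body weight daily for 3 days. The fat was dissociated with collagenase and sorted for Tomato+ cells, which were picked singly by fluorescence. All 15 cells belong to 1 group, no animal is named, and there are no untreated, Tomato-negative or control cells. The group therefore counts as 1 sample, no p-value or standard error is given, and cells are described one by one by the numbers 1 to 15 that the labels give them.

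Values are log2(FPKM + 1), where FPKM is the number of sequenced fragments scaled to transcript length and to library size. The values were quantile-normalized, so that every cell has the same set of sorted values and 4369 rows at 1 FPKM or more. A gene was counted as detected in a cell at 1 FPKM or more. Depth per cell is unknown. The library kit captures the 3' end of transcripts while FPKM divides by transcript length, so the levels of long transcripts are understated. All 11 stromal marker genes looked up had a row and 8 of them, of which Col1a1 and Col3a1 encode fibrillar collagen chains, were detected in every cell. Mural markers (5 of 12 with a row) summed to between 1.93 and 43.6 per cell and were high in cells 5 and 13. Markers of endothelial cells (2 of 8 with a row) and immune cells (1 of 7 with a row) were detected in fewer than 8 cells each. Between any pair of cells, the Spearman correlation over rows detected in at least 2 cells lay between 0.32 and 0.56, and over the subunits between 0.32 and 0.83.

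Oxidative phosphorylation takes place in the inner mitochondrial membrane. Complexes I (NADH dehydrogenase) and II (succinate dehydrogenase) pass electrons to ubiquinone, complex III passes them on to cytochrome c, and complex IV (cytochrome c oxidase) hands them to oxygen. Complexes I, III and IV pump protons, and complex V (ATP synthase) lets protons flow back to make ATP. Most subunits are encoded in the nucleus and imported, and the rest, among them the catalytic core of complex IV, by mitochondrial DNA. In fat tissue these genes are best known for their abundance in brown adipocytes. The table used here has no row for a mitochondrially encoded gene, and Cox4i1, Cox4i2, Cox6a2 and Cox8b are likewise not analysed here.

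Nearly all subunit genes were detected in nearly every cell. Of the 85 members 64 were detected in all 15 cells, beside 12.1% of all 8446 rows, and these 64 comprised 63 of the 75 subunits and Cox7a2l. Counting a cell only where the gene also reached 1% of its own highest value left 45 members, all of them subunits, beside 7.79% of all rows. The median level over cells, taken over the 75 subunits, had a median of 8.09, and the same over all rows was 0.79. Ranked by median level among all rows, the median subunit of the 74 detected in at least 3 cells stood at percentile 96.1, or 93.1 with FPKM multiplied by transcript length, and 72 of the 74 were at percentile 75 or above. The table was filtered before deposit by a rule that is not stated, and most of its rows are low in most cells.

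**Figure D1:**
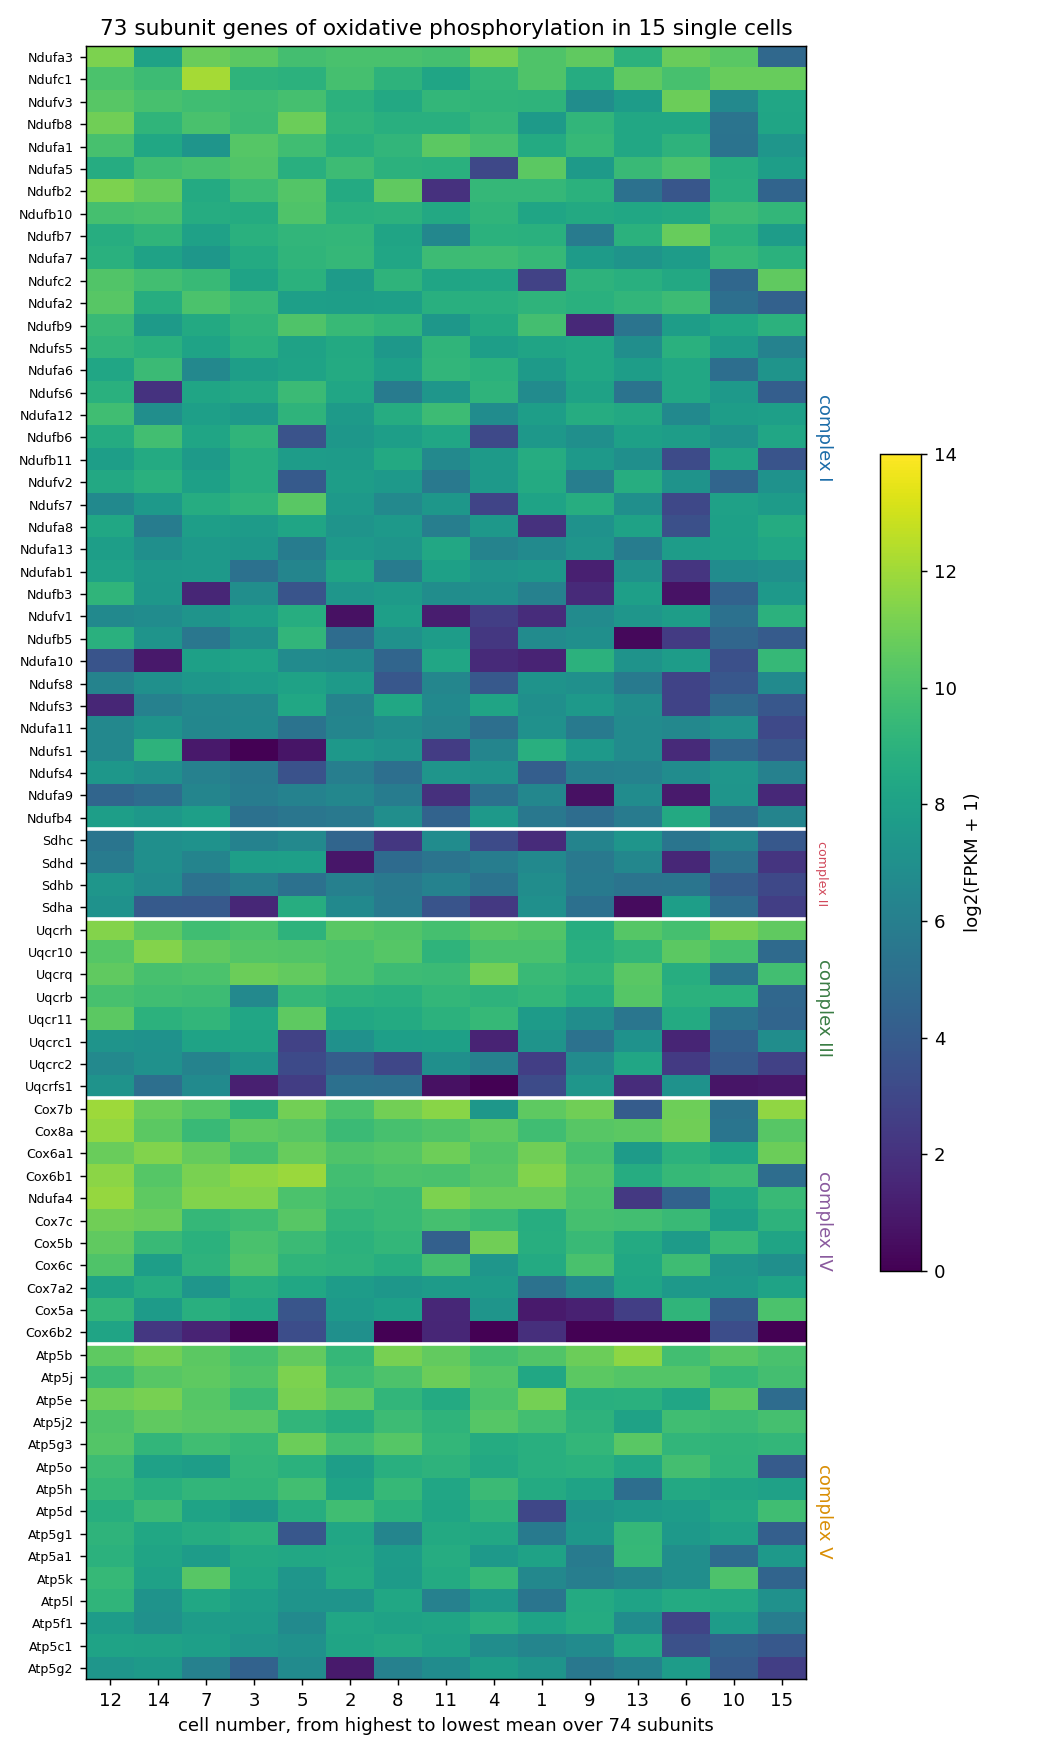
Level of 73 of the 74 subunit genes detected in at least 3 cells, as log2(FPKM + 1) in colour from 0 to 14, in 15 cells ordered from the highest to the lowest mean over the 74 genes. Rows are grouped by complex and sorted by median. The dark entries, genes near 0 in a given cell, are scattered over different genes in different cells and are densest in the core genes of complex I, in complex II and in Uqcrfs1 and Cox6b2.

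Complex I had 36 subunit rows with a median level of 7.77, of which 29 genes were detected in all 15 cells. Its 7 core genes, such as Ndufs1 and Ndufv1, encode the subunits at the heart of electron transfer. They had a median of 6.72, beside 8.09 for the 29 supernumerary subunits. Ndufs1, the largest core subunit, ranged from 0.00 in cell 3 through a median of 6.37 to 9.07 in cell 14 and was detected in 12 of 15 cells (80.0%, exact 95% interval 51.9 to 95.7%). Ndufv1, which binds the flavin, ranged from 0.62 in cell 2 through 6.82 to 8.97 in cell 15. The lowest values of these core genes thus fell in different cells. The highest medians of complex I belonged to the supernumerary genes Ndufa3 (lowest 4.72, median 10.12, highest 11.25) and Ndufc1 (8.24, 9.89 and 12.09 in the same order). The lowest belonged to Ndufb4 (4.46, 5.81 and 8.52) and Ndufa9 (0.63, 5.88 and 7.28). Ndufs1 and Ndufa10 varied most over cells, with SDs of 3.10 and 2.91, and Ndufa10 ranged from 0.97 in cell 14 to 9.35 in cell 15. Ndufb10 had the smallest SD of the complex, 0.63, between 8.22 and 10.16.

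Complex II, the only complex that is wholly nuclear-encoded and also an enzyme of the citric acid cycle, was the lowest of the 5. Its 4 genes had a median level of 5.74. Sdha, the flavoprotein, ranged from 0.44 in cell 13 through a median of 4.93 to 8.71 in cell 5. Sdhb, the iron-sulfur subunit, had a narrower range, from 3.04 in cell 15 through 5.66 to 7.37 in cell 12. The membrane anchors Sdhc (lowest 1.72, median 6.21, highest 7.31) and Sdhd (0.83, 5.83 and 7.89) were at levels like Sdhb. Sdha had the lowest median and the largest SD (2.43) of the 4.

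In complex III the median level was 8.82, and its core and supernumerary genes lay far apart. The 5 supernumerary genes Uqcrh, Uqcr10, Uqcrq, Uqcrb and Uqcr11 had medians from 8.56 to 10.19 and were detected in every cell. Uqcrh, the hinge protein beside cytochrome c1, varied least, from 8.72 in cell 9 through 10.19 to 11.40 in cell 12. The core proteins Uqcrc1 and Uqcrc2 had medians of 7.13 and 6.17 and fell to 1.37 in cell 4 and 2.40 in cell 6. Uqcrfs1, the Rieske iron-sulfur protein, was the lowest, from 0.00 in cell 4 through a median of 3.20 to 7.33 in cell 9. It was detected in 11 of 15 cells (73.3%, exact 95% interval 44.9 to 92.2%). Over complexes I and III together, the 10 core genes had a median level of 6.66 and the 34 supernumerary genes of 8.53. The core genes include Uqcrc1 and Uqcrc2 and leave out Cyc1 (cytochrome c1), which the name rule does not catch. The core transcripts were longer, with a median of 1679 nt for the longest annotated transcript against 891.5 nt. With FPKM multiplied by that length in kilobases the medians were 7.31 and 8.25, so the difference between them was smaller on that scale.

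Complex IV had a median level of 9.37 over its 12 rows, the highest of the 5 by this measure. By the mean over subunits in each cell, complex V was higher, with a median over cells of 8.52 against 8.37 for IV. With FPKM multiplied by the length of the longest annotated transcript in kilobases, complexes I to V had medians of 7.79, 6.28, 8.34, 9.50 and 9.07. On that scale IV, over its 11 subunits detected in at least 3 cells, was still highest and II lowest, while V stood above III. The lengths used for V include 6310 nt for Atp5l and 4715 nt for Atp5g1, and need not be those of the expressed transcripts. Cox7b (lowest 4.09, median 10.75, highest 11.96), Cox8a (5.46, 10.36 and 11.75), Cox6a1 (7.66, 10.30 and 11.37), Cox6b1 (4.98, 10.24 and 11.88) and Ndufa4 (2.31, 10.04 and 11.81) all had medians above 10. These are small subunits around the catalytic core, and Ndufa4, named for complex I, is now counted with complex IV. Cox5a, which binds at the matrix side, varied most, from 1.03 in cell 1 through 7.57 to 10.06 in cell 15 (SD 3.25). Cox7c had the smallest SD of the complex, 0.76. The lowest rows were those of the tissue-restricted forms. Cox6b2, best known from testis, was detected in 8 of 15 cells with a median of 1.42 but stood at 8.15 in cell 12. Cox7a1, the heart, muscle and brown fat form, was detected in 2 of 15 cells (13.3%, exact 95% interval 1.66 to 40.5%), reached 3.38 in cell 10, and was left out of the means below.

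Complex V had 15 rows with a median level of 8.43, and it was the only complex whose subunit genes were all detected in all 15 cells. Atp5b, the catalytic beta subunit of the F1 head, ranged from 9.32 in cell 2 through a median of 10.47 to 11.64 in cell 13, and its SD of 0.61 was the smallest of all 74 subunits. Atp5a1, the alpha subunit that alternates with beta in the head, was lower and ranged from 4.89 in cell 10 through 8.05 to 9.39 in cell 13. Both were highest in cell 13, in which the mean of all subunits was below its median. Atp5j, a peripheral stalk subunit, was the second highest of the complex (lowest 8.34, median 10.23, highest 11.22). The lowest medians were those of Atp5g2 (1.04, 6.22 and 7.80) and Atp5c1 (3.47, 7.38 and 8.46), and Atp5g2 and Atp5g1 varied most, with SDs of 2.00 and 1.72. The 5 F1 genes, 4 peripheral stalk genes and 6 membrane (Fo) genes had medians of 8.43, 8.71 and 8.12.

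The spread over cells was larger for low genes. Across the 74 subunits, which are genes and not replicates, the SD over cells and the median level had a Spearman correlation of -0.46, and that of median level with transcript length was -0.27. For 30 of the 85 members an exon overlaps an exon of another gene, in most cases on the opposite strand. Among them are Ndufs1 with Eef1b2, Atp5j with Gabpa, and Ndufaf3 with Impdh2. Whether counting used the strand is not given in the sources used here, so reads of such pairs may not be separable.

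The mean over 74 subunits, called the module mean here, differed by 2.13 log2 units between the highest and the lowest cell. Cell 12 was highest with 8.81, then came cell 14 with 8.21, cell 7 with 8.13, cell 3 with 8.003, cell 5 with 7.94, cell 2 with 7.84 and cell 8 with 7.81. The median was 7.57, in cell 11. Below it, cell 4 had 7.40, cell 1 7.39, cell 9 7.31, cell 13 7.28, cell 6 6.99, cell 10 6.92 and cell 15 6.67. The values ran on without a gap that would split the cells, cell 12 standing farthest from its neighbour, and their SD was 0.56. The mean over the 959 other genes detected in all 15 cells had an SD of 0.20 over the same cells, between 6.63 and 7.24. A mean over more genes tends to vary less, so the SDs of these sets of 74 and 959 genes cannot be compared directly.

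**Figure D2:**
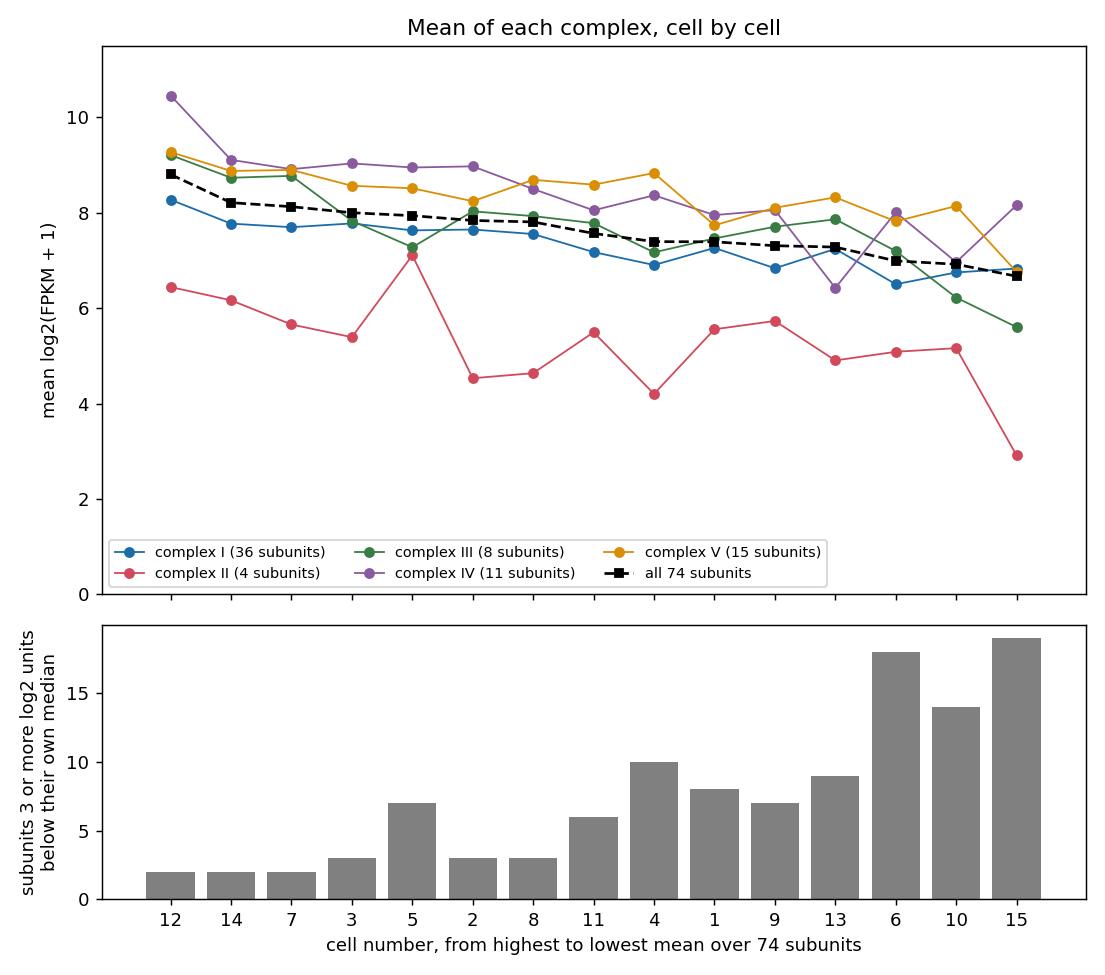
Upper panel, mean log2(FPKM + 1) of the subunits of each complex and of all 74 subunits in each of 15 cells, ordered from the highest module mean (cell 12, 8.81) to the lowest (cell 15, 6.67). Lower panel, number of the 74 subunits that lay 3 or more log2 units below their own median over cells, from 2 in cells 12, 14 and 7 to 19 in cell 15.

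The median difference of a subunit from its own median over cells was 0.86 in cell 12, and -0.80, -0.52 and -0.34 in cells 15, 10 and 6. In cell 12, 16 of the 74 subunits had their highest value there, among them Cox7b, Cox8a, Ndufa4, Ndufb8 and Uqcrh. The median difference of the 959 other genes was 0.00 in cell 12, and -0.11, -0.05 and -0.05 in cells 15, 10 and 6. It lay between -0.15 (cell 13) and 0.05 (cell 7) in all cells. Quantile normalization leaves this median little room to move, so it cannot serve as a contrast to the subunits. The lowest cells also held more very low subunits. In cell 15, 19 subunits lay 3 or more log2 units below their own median, in cell 6 18 and in cell 10 14, against 2 each in cells 12, 14 and 7. The number of such subunits and the module mean, which are computed from the same values, had a Spearman correlation of -0.93 over the 15 cells.

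Very low values of single genes were not restricted to this gene set. Among genes detected in all 15 cells, 27.0% of the 63 subunits and 14.4% of the 959 other genes lay 3 or more below their own median in cell 15. In cell 10 these shares were 20.6% and 10.3%, in cell 6 19.0% and 15.8%, and in cell 12 1.59% and 7.40%. Cell 5, with a module mean of 7.94, had 7.94% of the subunits and 15.2% of the other genes this low. Over the 15 cells the module mean had a Spearman correlation of 0.54 with the mean of the 959 other genes and of -0.63 with the share of them that was very low. The part of library quality in the order of the cells was not tested.

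The subunits that were very low in a cell came from several complexes. In cell 15 the mean of complex III (5.60), complex V (6.76) and complex II (2.91) was the lowest of all cells, while complex IV stood at 8.16, near its median over cells of 8.37. Uqcr10 (4.83), Uqcr11 (4.55), Cox6b1 (4.98), Atp5e (4.97) and Ndufa3 (4.72) each had their lowest value in cell 15, although their medians over cells were between 8.56 and 10.24. Cell 15 also held the highest values of Cox5a (10.06), Ndufa10 (9.35) and Ndufv1 (8.97). In cell 13 it was complex IV that was the lowest of all cells, at 6.43, with Ndufa4 at 2.31, Cox7b at 4.09 and Cox6a1 at 7.66, while Atp5b, Atp5a1, Atp5g1, Uqcrc2, Uqcrb and Sdhc were at their highest. Cell 6 had the lowest complex I mean, 6.50. Complex II was highest in cell 5 (7.11) and all other complexes in cell 12, at 8.28 for I, 9.21 for III, 10.46 for IV and 9.27 for V.

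The complex means ranked the cells in similar orders, complex II least so. Over 15 cells the Spearman correlation of complex means was 0.82 for I with III, 0.81 for I with IV, 0.69 for III with V, 0.68 for I with V, 0.62 for IV with V and 0.58 for III with IV. Complex II had 0.47 with I, 0.40 with III, 0.35 with V and 0.34 with IV, and its mean rests on 4 genes. The points share a library and a normalization within each cell, and these values are descriptions of 15 cells. The mean over the 10 pairs was 0.58, and leaving out each cell in turn gave means from 0.49 (without cell 12) to 0.62 (without cell 13).

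Gene by gene the agreement was weak. The mean Spearman correlation over the 2701 pairs of subunits was 0.104, beside 0.007 over pairs of the other genes detected in all 15 cells. Leaving out each cell in turn gave 0.061 (without cell 12) to 0.114 (without cell 13). Pairs within a complex (0.070 over 824 pairs) had a lower mean than pairs from different complexes (0.119 over 1877 pairs). Most pairs within a complex come from complex I, which has 36 of the 74 subunits, so the first mean mainly describes complex I. The 2 pairs with the highest correlation, Uqcr11 with Atp5h (0.82) and Ndufb2 with Cox5b (0.82), crossed complexes, as did 1877 of all 2701 pairs. Ndufs7 and Ndufs8, neighbouring iron-sulfur subunits of complex I, had 0.77, whereas Ndufs1 and Ndufv1 had -0.43, and Ndufa1 and Ndufc1 had the lowest value of all pairs, -0.78.

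Each subunit was then set against the mean of the other 73. At a Spearman correlation of 0.5 or more were 17 of the 74 subunits, beside 6.15% of the 959 other genes detected in all 15 cells and 3.26% of the 7341 other genes detected in at least 3 cells, each set against the mean of all 74. None of the subunits was at -0.5 or less, where 3.02% of the other genes lay in both sets. The median over subunits was 0.30, and 65 of 74 were above 0. By complex, the subunits at 0.5 or more were 6 of 36 in I, 1 of 4 in II, 3 of 8 in III, 3 of 11 in IV and 4 of 15 in V. None of the 10 core genes of complexes I and III was among them, against 9 of their 34 supernumerary genes. The median correlations of these groups were nevertheless close, 0.24 for core and 0.27 for supernumerary genes, with 8 of 10 and 28 of 34 above 0.

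**Figure D3:**
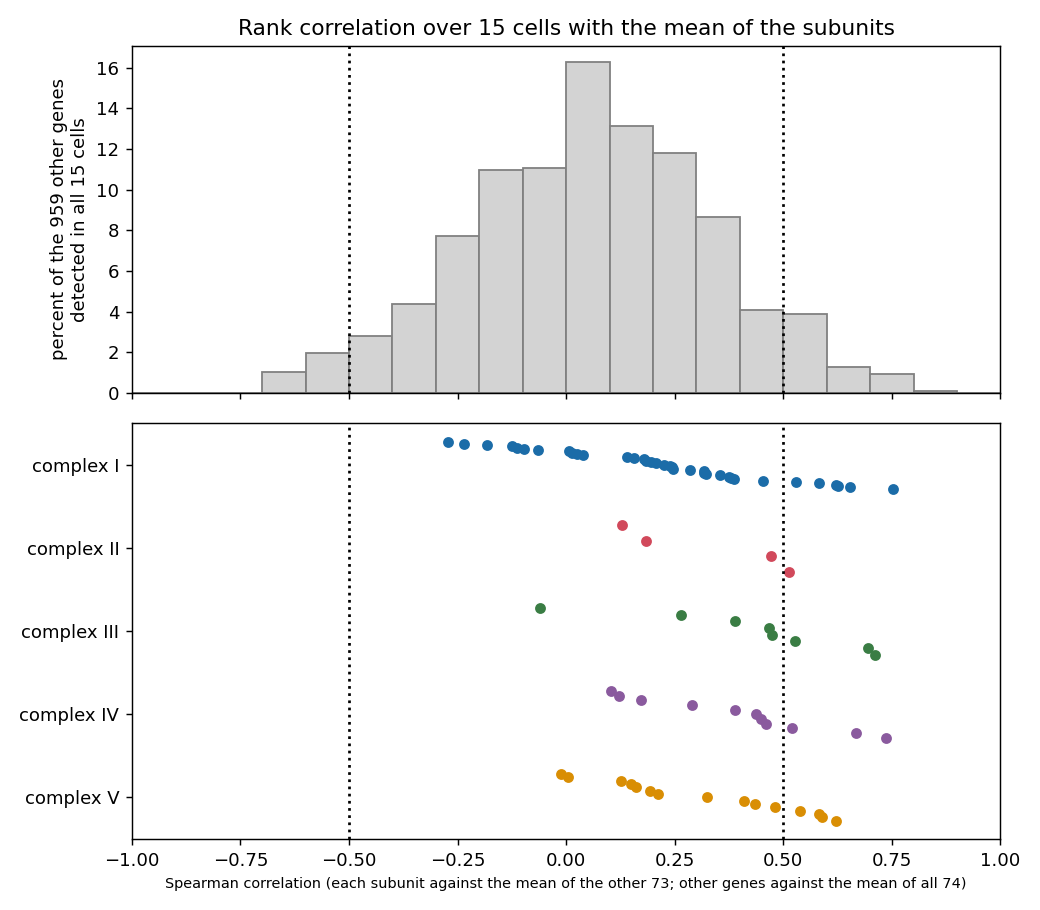
Spearman correlation over 15 cells. Upper panel, percent of the 959 other genes detected in all 15 cells, against the mean of the 74 subunits; lower panel, each subunit (1 point) against the mean of the other 73, by complex. Dotted lines stand at -0.5 and 0.5; 17 subunits lie to the right of the right-hand line and none to the left of the left-hand line.

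The 5 subunits nearest to the rest were Ndufb8, Cox6b1, Uqcr11, Uqcr10 and Ndufa4. Ndufb8, a supernumerary membrane-arm subunit of complex I, had a correlation of 0.75 and ranged from 5.40 in cell 10 through 9.13 to 10.98 in cell 12. Cox6b1, which faces the intermembrane space, had 0.74 and ranged from 4.98 in cell 15 through 10.24 to 11.88 in cell 5. Uqcr11 had 0.71 and ranged from 4.55 in cell 15 through 8.56 to 10.52 in cell 5. All 3 were thus low in cell 15 or 10 and high in cell 12 or 5, and Uqcr11 and Cox6b1 were also low in cell 13, at 5.52 and 8.69. Uqcr10 (0.70) stayed between 8.86 and 11.40 outside cell 15, and Ndufa4 (0.67) had its low values in cells 13 and 6, at 2.31 and 4.40. The 5 subunits farthest from the rest all belong to complex I: Ndufa10 with -0.27, Ndufc1 with -0.24, Ndufa13 with -0.18, Ndufv1 with -0.12 and Ndufs4 with -0.11. Ndufc1 and Ndufa13 were abundant and steady, with SDs of 0.98 and 0.79, while Ndufa10 and Ndufv1 had SDs of 2.91 and 2.85.

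Promoter windows of the subunits are shown because nuclear respiratory factors are known to act on many of these genes. NRF1 binds a palindrome searched here as GCGCA, then any base, then GCGC. GABP (NRF2), an ETS factor whose alpha chain is encoded by Gabpa, binds the core CCGGAAG, and YY1 was searched as AAGATGGCG. RefSeq windows on GRCm38.p6 of 300 bases, from 250 before to 50 after a gene's start, were found for 63 of the 74 subunits, and both strands were searched. The NRF1 letters were in a window of 17 of the 63 subunits (27.0%), 12.6% of the other genes of the table with a window, 14.04% of the other genes detected in all 15 cells and 5.19% of all genes with a window. The ETS letters were in 16 (25.4%), against 22.2%, 26.0% and 9.93%. YY1 letters were in 7 (11.1%), against 4.13%, 3.84% and 1.64%. The subunit windows held slightly less G and C (median 58.3%) than those of the other genes of the table (61.0%), and a gene had 1.08 and 1.29 windows on average in these groups. The median correlation with the rest was 0.29 for subunits with the NRF1 letters and 0.28 for those without, 0.42 and 0.25 for ETS, and 0.14 and 0.32 for YY1. A match describes the letters and not a bound site.

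For printing, only the window bases before the first annotated exon were used, where these were at least 150 bases and held no exon of another gene. In each complex the subunit with the highest correlation to the rest was taken among those with an NRF1 match in these bases, or failing that an ETS match in them. This gave 3 genes, since complexes II and IV had none, and subunits whose matches lie elsewhere in the window were passed over. Ndufs5 (0.58), a supernumerary subunit of complex I, lies at chr4:123712710-123718202 on the minus strand and carries an NRF1 match 98 bases before the start. Uqcr11 lies at chr10:80402997-80406830 on the minus strand and has an ETS match 66 bases before the start. Atp5e (0.62), the epsilon subunit of the F1 head, lies at chr2:174461072-174464105 on the minus strand and has the ETS letters on the opposite strand 102 bases before the start. The start in these distances is the RefSeq start, which in each of the 3 genes lies inside the first annotated exon. Each match is therefore nearer to the end of the printed bases than its stated distance. The bases printed 5' to 3' on the gene's strand end at the first annotated exon and lie at chr4:123718203-123718436, chr10:80406831-80407071 and chr2:174464106-174464351, and capitals mark the motif.
Ndufs5: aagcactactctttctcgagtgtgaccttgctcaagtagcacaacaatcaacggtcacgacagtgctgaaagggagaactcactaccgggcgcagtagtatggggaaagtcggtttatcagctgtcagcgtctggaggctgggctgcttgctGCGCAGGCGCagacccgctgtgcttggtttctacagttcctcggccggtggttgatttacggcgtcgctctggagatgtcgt
Uqcr11: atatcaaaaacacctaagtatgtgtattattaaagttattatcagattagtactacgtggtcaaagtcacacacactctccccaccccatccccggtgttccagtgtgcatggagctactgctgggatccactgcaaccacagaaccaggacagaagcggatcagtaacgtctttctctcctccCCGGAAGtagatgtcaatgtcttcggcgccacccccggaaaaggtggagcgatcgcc
Atp5e: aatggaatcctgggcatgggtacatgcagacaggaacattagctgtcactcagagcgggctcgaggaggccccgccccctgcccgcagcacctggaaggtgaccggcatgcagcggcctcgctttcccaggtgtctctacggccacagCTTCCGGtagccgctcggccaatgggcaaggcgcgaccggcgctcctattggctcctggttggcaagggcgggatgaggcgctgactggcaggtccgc

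Shares were computed where several genes encode forms of the same subunit, with the related genes Ndufa4l2 and Cox7a2l, which are not counted as subunits here. Subunit c, which forms the rotating ring of ATP synthase, is encoded by Atp5g1, Atp5g2 and Atp5g3 with the same mature protein. Of their summed FPKM, which is per length, Atp5g3 held the largest share in all 15 cells, from 41.4% in cell 4 through a median of 65.9% to 96.4% in cell 15. Atp5g1 held a median of 28.5%, from 0.650% in cell 5 to 41.4% in cell 3, and Atp5g2 a median of 5.40%, from 0.0901% in cell 2 to 23.4% in cell 4. The level of Atp5g3 lay between 8.62 and 10.86, that of Atp5g1 between 3.79 and 9.31 and that of Atp5g2 between 1.04 and 7.80. The order of these genes turned with the scale, since the longest annotated transcript has 4715 nt for Atp5g1 and 862 nt for Atp5g3. With FPKM multiplied by that length, Atp5g1 held the largest share in 11 cells (median 68.9%) and Atp5g3 in cells 1, 5, 8 and 15 (median 28.7%). Whether the longest annotated transcript is the one expressed, or the one used for FPKM, was not checked, so neither order is settled. Cox6b1 held at least 87.3% of the Cox6b sum in every cell, and the largest share of Cox6b2, 12.7%, was in cell 2. In the Cox7a family Cox7a2 was the largest in 12 cells and Cox7a2l in cells 5, 6 and 9, where Cox7a2l held up to 71.5%. With length multiplied back, Cox7a2 was the largest in 9 cells and Cox7a2l in 6, while Cox6b1 and Ndufa4 remained the largest in 15 and 14 cells. Near-identical stretches between these genes and their processed copies could split reads, and how shared reads were counted is not given in the sources used here.

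**Figure D4:**
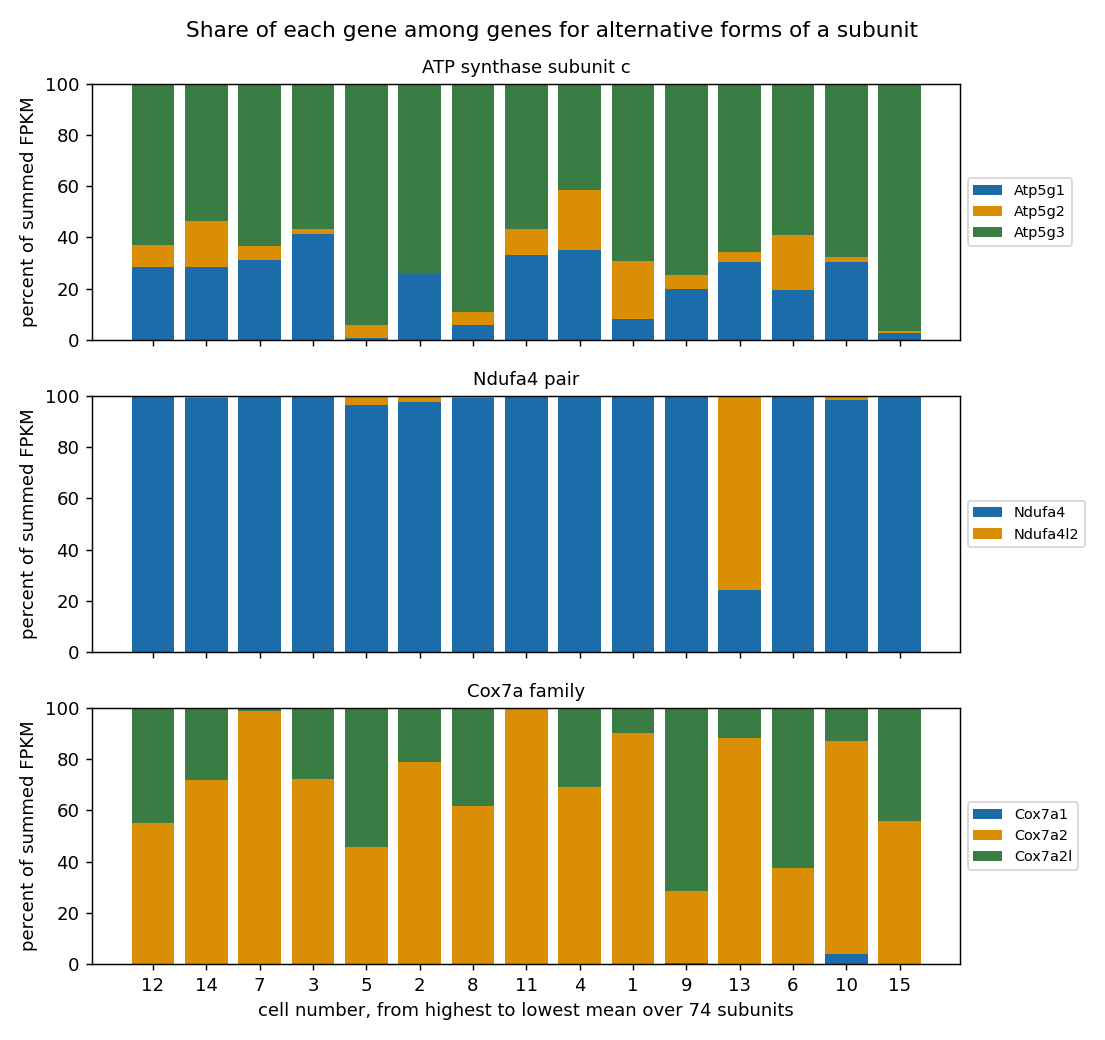
Share of each gene, in percent of the summed FPKM of its family, in 15 cells ordered from the highest to the lowest module mean. On this per-length scale Atp5g3 is the largest of the 3 subunit c genes in every cell (with length multiplied back Atp5g1 is the largest in 11 cells), Ndufa4l2 exceeds Ndufa4 in cell 13 only, and Cox7a2l exceeds Cox7a2 in cells 5, 9 and 6 (with length multiplied back in 6 cells).

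Ndufa4l2, a paralogue of Ndufa4 known as a gene induced by hypoxia and as abundant in pericytes, was detected in 8 of 15 cells (53.3%, exact 95% interval 26.6 to 78.7%). It was highest in cell 5, at 5.26, followed by 4.34 in cell 2, 4.07 in cell 14 and 3.73 in cell 13. In cell 13, where Ndufa4 stood at 2.31 against a median of 10.04, Ndufa4l2 made up 75.6% of the sum with Ndufa4. In the other 14 cells Ndufa4 held the larger share, and in cell 5 Ndufa4l2 made up 3.44%. Cells 5 and 13 were those high in mural genes (mean of the 5 rows 8.72 and 5.83, at most 2.37 elsewhere). Over all cells the Spearman correlation of Ndufa4l2 was 0.08 with Rgs5, 0.26 with Higd1b and 0.06 with Kcnj8, which are pericyte genes. Of 11 hypoxia-induced genes with a row, none was at 0.5 or more with the module mean and Bnip3, a mitophagy receptor, was at -0.54. Of all other genes detected in at least 3 cells, 3.26% were at 0.5 or more and 3.02% at -0.5 or less.

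The complex I assembly factors were far lower than the subunits they assemble. The 7 Ndufaf genes had medians from 0.44 to 4.64 with a median of 1.38, and none was detected in all 15 cells. Ndufaf2 was detected in 12 cells and reached 8.21 in cell 3. Ndufaf5 was detected in 6 of 15 cells, Ndufaf1 in 7, Ndufaf7 in 6 and the associated gene Atp5s in 3, so that each was below 1 FPKM in most cells and between 5.87 and 7.48 in its highest. Against the module mean, Ndufaf5 had a Spearman correlation of 0.71 and Ndufaf4 of 0.65, whereas Ndufaf3, whose exon overlaps Impdh2, had -0.63. Most Ndufaf5 values are below 1 FPKM, and in sparse values of this kind a rank correlation carries little.

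Other genes of mitochondrial energy metabolism were set against the module mean in the same way. In 8 lists (electron carriers and other subunits, assembly factors, nucleotide and phosphate carriers, citric acid cycle, fatty acid oxidation, protein import, antioxidants, and cristae and dynamics) 9 of 133 genes detected in at least 3 cells were at 0.5 or more. That is 6.77%, beside 3.26% of all other genes detected in at least 3 cells and 6.15% of those detected in all 15, and the median over the 133 genes was 0.17. Without cell 12 the count was 6 and the median 0.06. At -0.5 or less was only Mfn1, which fuses outer membranes, with -0.74 and detection in 4 cells. The nearest was Usmg5, a further ATP synthase subunit whose symbol the name rule does not catch, with 0.71 and values from 5.49 through 9.08 to 10.43. Hadh, of fatty acid oxidation, also had 0.71, from 0.20 through 4.80 to 7.43.

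Among the electron carriers, Cycs (cytochrome c) had 0.42 and a median of 4.30, Cyc1 (cytochrome c1, the nuclear-encoded haem protein of complex III) 0.16 and 5.43. The ATP synthase inhibitor Atpif1 had 0.45 and 9.09, Etfa 0.44 and 6.51, Etfb 0.20 and 9.14, and the electron transfer dehydrogenase Etfdh -0.34 and 0.23. Dhodh (0.24) and Gpd2 (0.10) were detected in 6 and 3 cells. None of these 8 genes reached 0.5, which 3.26% of all other genes detected in at least 3 cells did. The ADP/ATP exchangers Slc25a4 and Slc25a5 had 0.24 and 0.17 with medians of 7.79 and 8.23, and the phosphate carrier Slc25a3 had 0.23 and 7.59. Of the outer membrane channels, Vdac2 and Vdac3 had 0.31 and 0.25, and Vdac1 -0.47.

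Of 33 assembly factors for the complexes outside the name rule, 2 were at 0.5 or more, Coa3 of complex IV (0.58) and Uqcc2 of complex III (0.51). Of 26 import genes 4 were: Dnajc19 (0.66), Timm22 (0.66, detected in 4 cells), the chaperonin Hspd1 (0.51) and Timm17b (0.50). In the citric acid cycle none of 17 genes was, and citrate synthase (Cs) came nearest with 0.49. Gpx1, a peroxidase, had 0.52 among 10 antioxidant genes. Of 14 glycolysis genes Pgk1 had 0.56 and Pfkp -0.55. At 0.5 or more were 3.26% of all other genes detected in at least 3 cells and 6.15% of those detected in all 15. At -0.5 or less were 3.02% in both sets. In lists this small, such counts say little. The mean of a list against the module mean gave 0.62 for import, 0.43 for assembly factors, 0.38 for the citric acid cycle, 0.35 for fatty acid oxidation and 0.34 for glycolysis.

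The mean of the mitochondrial ribosomal protein genes had the highest correlation with the module mean of the list means computed, 0.81 over 15 cells. It was 5.39 in cell 12 and 3.19, 3.42 and 3.51 in cells 6, 10 and 15. Taken singly, 9 of the 76 genes were at 0.5 or more (11.8%), 1 was at -0.5 or less, and their median was 0.13. At 0.5 or more were 3.26% of all other genes detected in at least 3 cells and 6.15% of those detected in all 15. Cell 5 stood apart, with a module mean of 7.94 and a ribosomal mean of 3.73. The cytosolic ribosomal protein genes had 0.24. The lists differ in the number of genes averaged, and the mean of the 959 other genes detected in all 15 cells had 0.54.

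The known regulators of mitochondrial biogenesis had low medians over cells, as had most rows of the table, whose median was 0.79. Of 14 genes 8 had a row, and no regulator was detected in all 15 cells, beside 12.1% of all rows. None was at 0.5 or more or at -0.5 or less, beside 3.26% and 3.02% of all other genes detected in at least 3 cells. With 8 genes, such counts say little. Nrf1 was detected in 6 cells (0.08), Gabpa in 7 (-0.41), Gabpb1 in 5 (0.20), Tfam, which packages mitochondrial DNA, in 7 (0.17), Tfb2m in 6 (-0.22) and Polrmt, the mitochondrial RNA polymerase, in 3 (-0.30). The coactivator Pprc1 (-0.28) and Yy1 (-0.22) were each detected in 8 cells. Their medians were between 0.00 and 1.02, so cell-to-cell ranks of these genes mostly order values near 0. In single cells they stood higher, with highest values between 4.81 (Gabpb1, cell 9) and 8.63 (Gabpa, cell 10).

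Outside these lists, the 10 genes nearest to the module mean among those detected in at least 8 cells, where 4.11% were at 0.5 or more, were Sec61b (0.85), Cnpy3 (0.83), Syap1 (0.81), Psmd1 (0.80), Ranbp1 (0.80), Psmb5 (0.76), H2afj, Rps19bp1 and Cdk2ap2 (0.75 each) and Grcc10 (0.74). Sec61b, a subunit of the channel that feeds proteins into the endoplasmic reticulum, ranged from 4.49 in cell 15 through 9.62 to 10.35 in cell 3. At the other end, where 3.54% were at -0.5 or less, were Arfip1 (-0.84), Pam (-0.74), Srp54a (-0.73), Trim2 (-0.72), Klf3 and Ppp1r10 (-0.71 each), Sbf2, Tpr, Nfe2l2 and Psmc6 (-0.70 each). These genes were picked as the extremes of 3869, so their values are a description.

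Lists of cell identity and state had low correlations with the module mean. Over 15 cells the Spearman correlation was -0.31 with the stromal mean, -0.30 with the mural mean, 0.00 with the committed preadipocyte mean, -0.21 with the Dpp4 progenitor mean, 0.11 with the mature adipocyte mean, 0.16 with the cell cycle mean and -0.05 with the immediate early mean. Single genes gave -0.01 for Prrx1, -0.36 for Pdgfra, 0.18 for Pparg and -0.16 for Cd34. Cells 12 and 6, at the top and near the bottom of the module mean, had the highest preadipocyte means of the 15, 7.62 and 7.88. Cell 13, the one cell with a high cell cycle mean (9.07, at most 3.09 elsewhere), had a module mean of 7.28 and the highest glycolysis mean, 7.10. The number of rows above a cell's lowest value, a measure of breadth that the normalization leaves free, had 0.12 with the module mean.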

How the data were processed

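RNA of each cell was amplified and tagged with the SMART-Seq v4 3' DE chemistry and made into libraries by Nextera XT, per the labels' protocols. TopHat2, Cufflinks and the build GRCm38 are named in the submitters' processing notes, without versions or settings. The deposited values are named as FPKM. They end at 13.69, and read as log2(FPKM + 1) they sum to a mean of 592948 FPKM per cell, so the log2 scale of the authors' deposited values was inferred from the values and is not stated by a label. Sorted columns differ by at most 0.0354 above a value of 0.2, so the values were taken as quantile-normalized. The design had assumed linear FPKM, and no further logarithm was taken. Each column was tied to its cell by the number in the sample title, and 18 columns were empty.

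Means and Spearman correlations were computed with Python 3.11.15, numpy 2.4.6, pandas 2.3.3 and scipy 1.17.1, after the functions had been tested on simulated data, and figures with matplotlib 3.10.9. Subunits detected in at least 3 cells entered the module mean. Intervals for shares of cells are Clopper-Pearson intervals at 95% and cover sampling of cells only. Gene coordinates come from GENCODE M21 (GRCm38), and promoter windows those of RefSeq. The members and the 23 gene lists were chosen with earlier results of these data known. Genes were named by rule: all forms of a subunit, complex II, core enzymes, the highest, lowest and most variable genes of each complex, the 5 members and 10 other genes at each end of the correlation, all carriers and regulators, and up to 4 genes of other lists. Pairs, cells and the values of Usmg5 were singled out after seeing them. Alternatives were other detection limits, filters, pseudocounts, averages and correlations, and leaving out cells. The values of 1 subunit gene, which entered the means and counts, are not reported here.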

Additional observations from a re-analysis of the deposited data

How the results depend on the processing

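The labels give 1 group of cells without replicates, so these values have no error between animals, depth is unknown, and correlations rest on 15 cells. No paired analysis was possible because there is 1 group. Under each alternative way of averaging run, cell 12 stayed highest and cell 15 lowest. The order of cells had a Spearman correlation of 0.88 (median over subunits) to 1.00 with that reported. The filter for subunits detected in at least 8 cells kept the same 74 genes, so its agreement was fixed in advance. Leaving out each cell in turn gave 0.49 to 0.62 for the mean over pairs of complexes, 0.061 to 0.114 for the mean over pairs of subunits, 14 to 21 subunits at 0.5 or more, 6 to 12 of the other mitochondrial genes at 0.5 or more, 0.02 to 0.32 for breadth of detection and 0.76 to 0.89 for the mitochondrial ribosomal mean. Without cells 5 and 13, an alternative added after seeing the data, the mean over pairs of complexes was 0.65, 23 subunits were at 0.5 or more, the mitochondrial ribosomal mean had 0.94, and 14 of the other mitochondrial genes were at 0.5 or more. Without cells 1, 11 and 14, those with the fewest rows above their lowest value, 25 subunits and 14 of the other mitochondrial genes were at 0.5 or more, beside 5.52% of all other genes, and breadth of detection had 0.33.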
